A study of Mus musculus with 9 samples.

Results

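Autophagy is the route by which a cell encloses its own proteins and organelles in a double membrane and delivers them to the lysosome, and mitophagy is the same route taken by damaged mitochondria. The genes described here are 37 components of that machinery, namely the kinase and lipid kinase complexes that start an autophagosome, the enzymes that attach Atg8 proteins to its membrane, the Atg8 proteins themselves, cargo receptors, mitophagy genes, and the kinase mTOR with its partner raptor, which hold the route back when nutrients are plentiful. They were taken by name from the known pathway. Of the 37 genes, 35 had a probe set that the array's annotation assigned to 1 gene symbol, out of 19938 such genes in all, and the other 2 were not analysed here. In the kidney, tubule cells are long-lived and rich in mitochondria, and deletion of Atg5 from the tubules or podocytes of mice is known to damage them.

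The study asked which genes differ between aged and young adult kidneys. Total RNA of whole kidneys from 5 female wild-type mice of 96 weeks and 4 female wild-type mice of 14 weeks was hybridised to Affymetrix Mouse Gene 1.0 ST arrays, and all 9 mice were of a mixed FVB/C57BL6 background. No transgene, deletion or treatment distinguished the groups, and each array was labelled as a separate replicate. Values are log2 expression after robust multi-array averaging (RMA), a method that combines the probes of a probe set, so that a difference of 1 is a doubling. Genes are ranked by mean signal only to set them beside other probe sets of like brightness, which is not a ranking of RNA abundance.

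Autophagosome formation proceeds in steps. The Ulk1 kinase complex receives signals from mTORC1 and AMPK, the lipid kinase Vps34 marks the membrane, and a chain of enzymes joins LC3 and GABARAP proteins to a membrane lipid, where receptors such as p62 bind them with their cargo. Many genes of the route and of lysosomes are known targets of the transcription factor TFEB, which binds the CLEAR element, an E-box with the letters CACGTG flanked by GT before and AC after it.

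To show where such motifs lie beside the genes of the results below, 270-base windows around annotated starts (250 bases before and 20 from the start on) were read from RefSeq, build GRCm38.p6, for 28 of the 35 measured genes (30 windows), and both strands were searched. The E-box lay in 4 of the 30 windows (13.3%), those of Atg3, Atg5, Atg7 and Atg14. It lay in 6.57% of all 32851 windows of this length and in 7.27% of the 21263 windows of protein-coding genes. No window of the 35 genes held the whole CLEAR element. With at most 1 mismatch, 2 windows held it, those of Atg3 and Map1lc3b (6.67%, against 1.7% of all and 2.07% of protein-coding windows). The window of Map1lc3b is shown because this gene alone passed the test described below, with the inexact element in capitals. The element begins 2 bases before the start and runs past it. Its 1 mismatch lies in the E-box, which reads CACCTG there, so that the window holds no E-box. It spans chr8:121590188-121590457 on the plus strand.

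Map1lc3b: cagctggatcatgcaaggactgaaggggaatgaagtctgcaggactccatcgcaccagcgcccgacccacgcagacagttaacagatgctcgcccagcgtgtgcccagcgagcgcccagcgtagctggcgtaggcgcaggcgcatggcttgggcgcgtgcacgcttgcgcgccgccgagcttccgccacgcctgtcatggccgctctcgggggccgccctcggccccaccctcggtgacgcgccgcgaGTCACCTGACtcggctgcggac

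The E-boxes of the 4 other genes are shown in capitals with 12 bases on either side, 94 and 71 bases before the start in Atg3, 14 in Atg5, 132 in Atg7 and 1 in Atg14. For Atg7 this is an annotated start inside the gene, which begins at chr6:114643127. The stretches lie at chr16:45158723-45158752 and chr16:45158746-45158775 (Atg3), chr10:44268313-44268342 (Atg5) and chr6:114670952-114670981 (Atg7) on the plus strand and at chr14:47568418-47568447 (Atg14) on the minus strand.

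Atg3, 94 bases before the start: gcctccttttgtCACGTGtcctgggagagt
Atg3, 71 bases before the start: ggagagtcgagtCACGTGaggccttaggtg
Atg5: cggagcgcttgcCACGTGgtcttggtgacg
Atg7: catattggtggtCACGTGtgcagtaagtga
Atg14: aaaacaaaatccCACGTGactggccctgag

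These matches are descriptions of the letters, not bound sites. The whole CLEAR element contains the E-box, whereas the element with a mismatch need not. A Foxo site, GTAAACA, was found in none of the 30 windows, in 3.38% of all windows and in 2.77% of protein-coding windows. An Atf4 site, TGATGNAA, was found in none of the 30, in 3.69% of all and in 3.42% of protein-coding windows. An antioxidant response element, TGACNNNGC, was found in 4 (13.3%, against 11.1% of all and 11.5% of protein-coding windows), those of Atg13, Map1lc3b, Tax1bp1 and Ulk2.

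Map1lc3b, which encodes LC3B, the Atg8 protein most used to follow autophagosomes, was the only one of the 35 genes that passed an adjusted p under 0.05 in limma, and it was higher at 96 weeks. This is 2.86% of the genes, against 4.31% of all 19938 genes called higher, and none of the 35 was called lower, against 2.4% of all genes. The share called was thus no larger than the background. At an unadjusted p under 0.05, 11 genes were higher (31.4%, against 13.3% of all genes) and 2 were lower (5.71%, against 15.3%). None passed the methods' threshold of 1.5-fold with an unadjusted p under 0.05, which 1.6% of all genes did. All log2 fold changes lay between -0.13 and 0.41, with 28 above 0 and 7 below it (80% above 0, against 43.4% of all genes) and a median of 0.06, against -0.03 over all genes. All 35 genes lay above the 30th percentile of mean level, where log2 fold changes over all genes were higher than among dim genes. Among the 4985 brightest genes, which held 20 of the 35, the median log2 fold change was 0.05 and 11% were called higher, and among the 4984 next brightest, which held the other 15, these were 0.04 and 5.36%. The medians of the 20 and the 15 were 0.08 and 0.06, close to those of all genes of like brightness.

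**Figure D1:**
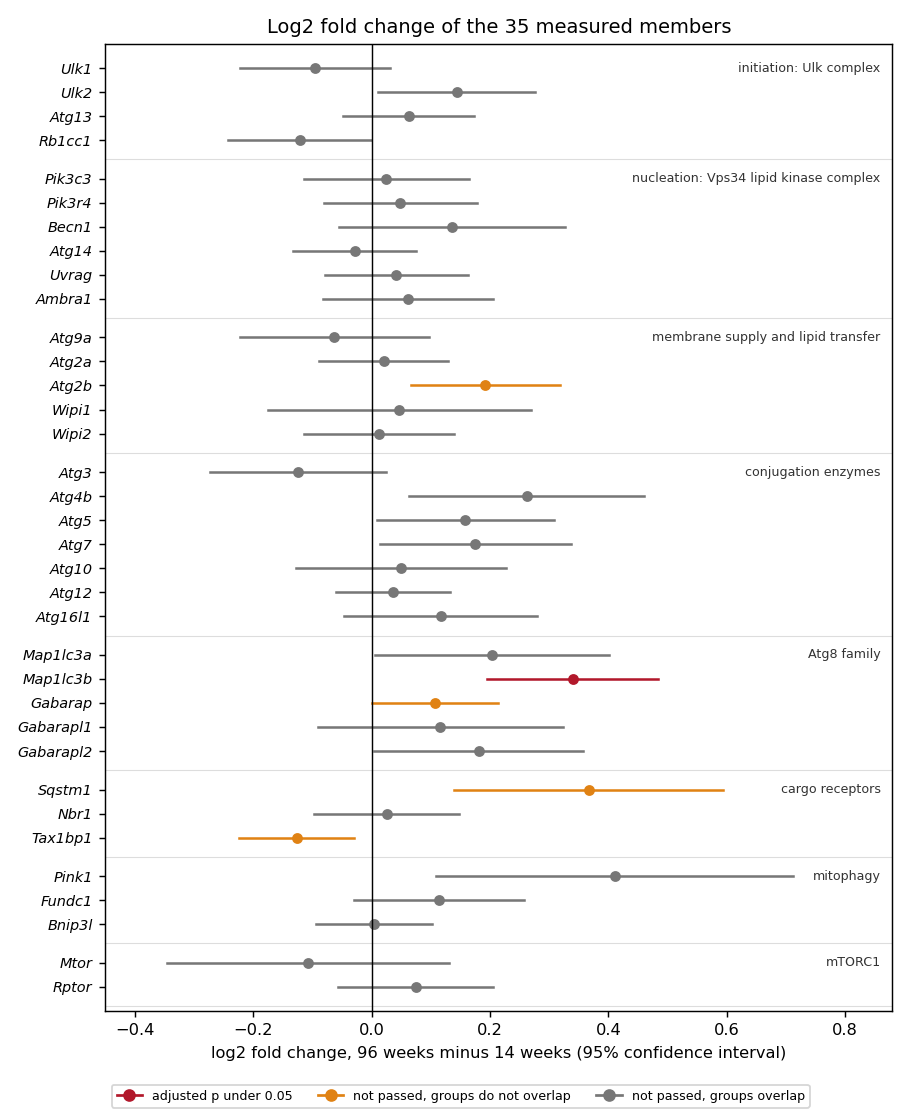
Log2 fold change (96 weeks minus 14 weeks) of the 35 measured autophagy genes on the horizontal axis, ordered by role, with 95% confidence intervals from limma. Map1lc3b alone passed an adjusted p under 0.05, Sqstm1, Atg2b, Gabarap and Tax1bp1 had groups that did not overlap without passing, and most of the remaining intervals crossed 0.

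The groups did not overlap in 5 of the 35 genes. Map1lc3b, Sqstm1, Atg2b and Gabarap were higher in every 96 week old kidney than in any 14 week old one (11.4%, against 7.49% of all genes), and Tax1bp1 was lower in every one (2.86%, against 5.79%). They are described with the Atg8 family, to which Map1lc3b and Gabarap belong, and then by role. In whole-kidney RNA, fewer cells of a type and less RNA per cell cannot be told apart.

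The 5 Atg8 proteins are the ubiquitin-like tags of the autophagosome membrane, and all 5 genes had a log2 fold change above 0 (against 43.4% of all genes). Their median was 0.18, and 4 had an unadjusted p under 0.05 (80%, against 13.3% of all genes). Bright genes were called higher more often (11% of the 4985 brightest at an adjusted p under 0.05). All genes are thus not a like background for the bright ones among the 5. Map1lc3b had log2 values of 10.18, 10.09, 10.27, 10.07 and 9.9999 at 96 weeks, against 9.83, 9.86, 9.73 and 9.71 at 14 weeks. Every 96 week old kidney lay above every 14 week old one, and replicate 3 at 96 weeks was the highest. The means were 10.12 ± 0.11 at 96 weeks (SD, n = 5) and 9.78 ± 0.08 at 14 weeks (SD, n = 4), a log2 fold change of 0.34 ± 0.06 (SE) or 1.27-fold, with an adjusted p of 0.0174 in limma and an exact permutation p of 0.0079 (two-sided), the smallest that the 126 splits of 9 arrays allow. A second probe set annotated to Map1lc3b, which listed the same RefSeq transcript, gave a log2 fold change of 0.27 ± 0.06 (SE), again with no overlap between the ages. Probe coordinates were not given. By its number, the set used stands beside that of Atg14 on chromosome 14, whereas Map1lc3b lies on chromosome 8. The number of the second set follows those of Lamp1 and Fkbp8, which lie on chromosome 8. If numbers follow genome position, the second set, with 0.27, is the one at the gene's own locus. The call was lost with an adjusted p of 0.0504 without 14 weeks replicate 3, 0.0546 without 14 weeks replicate 4 and 0.0516 in the methods' t-test, and Map1lc3b passed under 16 of 20 alternative settings in all.

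**Figure D2:**
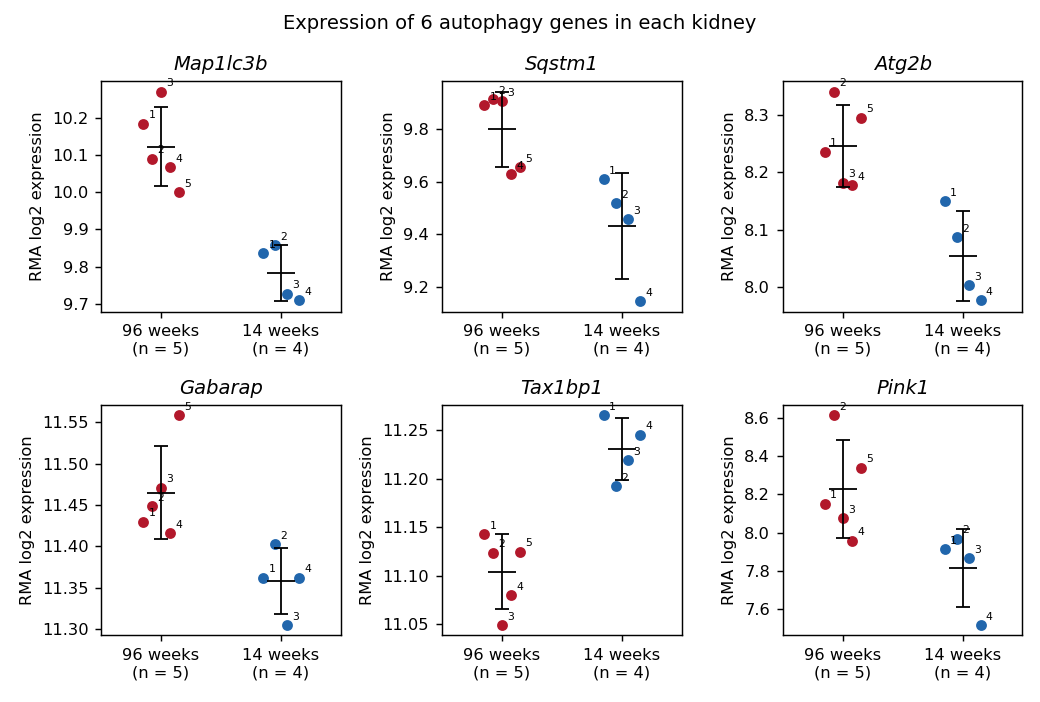
RMA log2 expression (vertical axis) of 6 autophagy genes in each kidney at 96 weeks (red, left, n = 5) and 14 weeks (blue, right, n = 4), with the replicate number beside each point and the mean ± SD as a bar. The ages do not overlap for Map1lc3b, Sqstm1, Atg2b, Gabarap and Tax1bp1, and Pink1 overlaps by 1 kidney of each age.

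Gabarap, an Atg8 protein of the other branch of the family, had log2 values of 11.43, 11.45, 11.47, 11.42 and 11.56 at 96 weeks, against 11.36, 11.40, 11.31 and 11.36 at 14 weeks. The ages did not overlap, but the gap between the lowest old and the highest young kidney was narrow, 11.42 against 11.40. Its log2 fold change was 0.11 ± 0.05 (SE), with an adjusted p of 0.174 in limma and an exact permutation p of 0.016. Gabarapl2 (GATE-16) had a log2 fold change of 0.18 and Map1lc3a (LC3A) one of 0.20, with adjusted p-values of 0.167 and 0.165 in limma. For Gabarapl2 this difference rested in part on 1 young kidney: 14 weeks replicate 4 was at 8.72, whereas the other 8 kidneys lay between 9.07 and 9.21, and without it the log2 fold change was 0.09. A second, dimmer probe set of Gabarapl2 gave 0.37 with overlapping groups (unadjusted p = 0.0558 in limma), and the choice of probe set thus moved the value. By its number, the brighter set stands beside that of Rheb on chromosome 5, whereas Gabarapl2 lies on chromosome 8. The dimmer set may thus be the one at the gene's own locus. Map1lc3a was likewise lowest in 14 weeks replicate 4, at 7.02, against 7.27 or more in every other kidney, and without it the log2 fold change was 0.12. Gabarapl1, a close relative of Gabarap, had a log2 fold change of 0.12 with an adjusted p of 0.417 in limma and overlapping groups, and 0.06 without 14 weeks replicate 4 or 0.07 without 96 weeks replicate 2. RefSeq lists 6 pseudogenes named after Gabarapl2, so that its probes may also take up signal from near-identical copies.

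The averages of the 5 Atg8 genes in each kidney, centred on the mean of all 9 arrays per gene, were 0.09, 0.15, 0.06, 0.01 and 0.11 at 96 weeks, against -0.04, -0.06, -0.07 and -0.26 at 14 weeks. All 5 old kidneys were above all 4 young ones, and 14 weeks replicate 4 stood lowest.

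Cargo receptors link ubiquitinated cargo to Atg8 proteins, and the 3 that were measured differed in direction. Sqstm1, which encodes p62, had log2 values of 9.89, 9.91, 9.91, 9.63 and 9.66 at 96 weeks, against 9.61, 9.52, 9.46 and 9.15 at 14 weeks. The groups did not overlap, although replicates 4 and 5 at 96 weeks lay close to 14 weeks replicate 1. Its log2 fold change was 0.37 ± 0.10 (SE), 1.29-fold, with an adjusted p of 0.0586 in limma and an exact permutation p of 0.016, and it missed the threshold. Among its alternatives, the adjusted p in limma was 0.0497 with an intensity trend and robust variance and 0.0454 after removal of dim genes, and it was 0.125 without 14 weeks replicate 4, where the log2 fold change was 0.27.

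Tax1bp1, a receptor that also takes part in the clearance of protein aggregates, went the other way. Its log2 values were 11.14, 11.12, 11.05, 11.08 and 11.12 at 96 weeks, against 11.27, 11.19, 11.22 and 11.25 at 14 weeks. Every old kidney was below every young one, and the spread within each age was small, 0.04 (SD) at 96 weeks and 0.03 (SD) at 14 weeks. The log2 fold change was -0.13 ± 0.04 (SE), with an adjusted p of 0.102 in limma and an exact permutation p of 0.0079. It passed the threshold only after a repeated quantile normalization (-0.18, adjusted p = 0.0426 in limma), a setting described below. Nbr1, a relative of p62, had a log2 fold change of 0.03 (95% confidence interval -0.10 to 0.15), and 5 of its 9 arrays carried 1 same value.

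Among the mitophagy genes, Pink1, the kinase that accumulates on damaged mitochondria and marks them for removal, had the largest log2 fold change of the 35 genes. Its log2 values were 8.15, 8.61, 8.08, 7.96 and 8.34 at 96 weeks, against 7.91, 7.97, 7.87 and 7.52 at 14 weeks. Replicate 2 at 96 weeks was the highest and 14 weeks replicate 4 the lowest, and the ages overlapped by 1 pair of kidneys, since 96 weeks replicate 4 (7.96) lay just below 14 weeks replicate 2 (7.97). The log2 fold change was 0.41 ± 0.14 (SE), 1.33-fold, with an adjusted p of 0.0911 in limma and an exact permutation p of 0.024, and its 95% confidence interval ran from 0.11 to 0.71. Leaving out each array in turn gave log2 fold changes from 0.31 to 0.48. Fundc1, a receptor of the outer mitochondrial membrane, had one of 0.11 with an adjusted p of 0.263 in limma. Bnip3l, the receptor also called NIX that removes mitochondria from maturing red cells, had one of 0.0038 (95% confidence interval -0.09 to 0.10) and lay between 11.85 and 11.89 in the old kidneys, against 11.80 and 11.93 as the ends of the young range. A second probe set of Bnip3l gave 0.01. Its number follows that of Atg14, which like Bnip3l lies on chromosome 14, so that it may be the one at the gene's own locus. RefSeq lists 1 pseudogene named after Bnip3l.

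The Ulk complex, which starts autophagosome formation, was split. Ulk2 had a log2 fold change of 0.14 and Atg13, the subunit that mTORC1 phosphorylates, 0.06, whereas Rb1cc1 (FIP200), the scaffold of the complex, had -0.12 and Ulk1 had -0.10. Ulk2 and Rb1cc1 had unadjusted p-values of 0.036 and 0.048, and their adjusted p-values in limma were 0.149 and 0.172. The groups of all 4 genes overlapped. Ulk2 had log2 values of 8.19, 8.12, 8.11, 8.13 and 8.21 at 96 weeks, against 8.06, 7.94, 7.89 and 8.13 at 14 weeks. Only 14 weeks replicate 4 reached the range of the old kidneys. Rb1cc1 lay between 8.73 and 8.91 at 96 weeks, against 8.88 to 9.05 at 14 weeks. For Ulk1 and Atg13, 5 of the 9 arrays carried 1 same value, so that small differences in these genes were poorly resolved. Of the 35 genes, 15 (42.9%) had at least 3 arrays at 1 value, against 33.3% of all genes.

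The Vps34 lipid kinase complex, which makes the phosphatidylinositol 3-phosphate that marks the growing membrane, showed small differences, and none of its 6 genes reached an unadjusted p under 0.05. The largest log2 fold change was that of Becn1 (beclin 1), the regulatory subunit that Bcl2 binds, 0.14 with a 95% confidence interval of -0.06 to 0.33. Becn1 had log2 values of 8.48, 8.48, 8.11, 8.27 and 8.41 at 96 weeks, against 8.17, 8.32, 8.27 and 8.11 at 14 weeks, so that 3 of the old kidneys lay above all the young ones and the others within their range. The catalytic subunit Pik3c3 had a log2 fold change of 0.03, its partner Pik3r4 (Vps15) 0.05, Uvrag, which directs the complex to endosomes, 0.04, Ambra1, which couples the complex to Ulk1 and the cytoskeleton, 0.06, and Atg14, which directs it to the autophagosome, -0.03. Their 95% confidence intervals ran from -0.13 to 0.20 at the widest.

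Of the 5 genes that supply membrane and lipid, Atg2b stood apart. ATG2 proteins are tubes that carry lipid from the endoplasmic reticulum into the growing membrane. Atg2b had log2 values of 8.24, 8.34, 8.18, 8.18 and 8.29 at 96 weeks, against 8.15, 8.09, 8.003 and 7.98 at 14 weeks. The ages did not overlap, with the lowest old kidneys just above 14 weeks replicate 1. The log2 fold change was 0.19 ± 0.06 (SE), with an adjusted p of 0.0697 in limma and an exact permutation p of 0.0079. A second, dimmer probe set of Atg2b gave 0.08 with overlapping groups. Its paralog Atg2a had a log2 fold change of 0.02, with 5 arrays at 1 value, and Atg9a, the scramblase of the vesicles that seed the membrane, had -0.06. The phosphoinositide-binding proteins Wipi1 and Wipi2, the second of which recruits the conjugation machinery, had 0.05 and 0.01.

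Of the 7 enzymes and partners that conjugate Atg8 proteins to lipid, 6 had a log2 fold change above 0 (85.7%, against 43.4% of all genes). Their median was 0.12, and none passed. Atg4b, the protease that trims LC3 and later frees it from the membrane, had log2 values of 6.92, 7.16, 6.92, 7.08 and 6.92 at 96 weeks, against 6.66, 6.92, 6.85 and 6.52 at 14 weeks. Only 14 weeks replicate 2 reached the value that 3 of the old kidneys shared. The log2 fold change was 0.26 ± 0.09 (SE), with an adjusted p of 0.0982 in limma. The E1-like enzyme Atg7 had a log2 fold change of 0.18 and Atg5, the acceptor of Atg12, one of 0.16, both at an unadjusted p under 0.05 and with adjusted p-values of 0.150 and 0.158 in limma. The E2-like enzyme Atg3 had -0.12 with an adjusted p of 0.244 in limma. Atg16l1, which brings the Atg5 and Atg12 pair to the membrane, had 0.12, the other E2-like enzyme Atg10 had 0.05 and Atg12, the ubiquitin-like partner of Atg5, had 0.04. Of the 4 genes with an E-box in the window shown above, Atg5 and Atg7 thus had log2 fold changes above 0 and Atg3 and Atg14 below it.

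Mtor and its partner Rptor (raptor) did not pass. Mtor had log2 values of 8.95, 8.96, 8.40, 8.63 and 8.72 at 96 weeks, against 8.88, 8.81, 8.79 and 8.88 at 14 weeks. The old kidneys lay on both sides of the young ones and spread far more widely, with an SD of 0.23 at 96 weeks and 0.05 at 14 weeks. The log2 fold change was -0.11 (95% confidence interval -0.35 to 0.13), and Rptor had 0.07 (-0.06 to 0.21).

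The old kidneys also differed from each other across the genes as a group. The mean of the 35 centred genes was 0.07, 0.10, -0.02, -0.01 and 0.04 at 96 weeks, against -0.03, -0.03, -0.04 and -0.08 at 14 weeks. Replicates 3 and 4 at 96 weeks were lowest of the old kidneys in 12 genes each, and replicate 2 was highest in 16 of the 35. These 2 kidneys, replicates 3 and 4, also had the highest mean of the 12 macrophage markers. All 12 had a log2 fold change above 0, and 3 passed (25%, against 4.31% of all genes called higher). Their mean was 0.14, -0.14, 0.91, 0.99 and -0.0048 in the old kidneys, against -0.46, -0.45, -0.47 and -0.51 in the young. Csf1r, 1 of the 3 that passed, was instead lowest in these 2 of the old kidneys (8.33 and 8.50, against 8.61 to 8.78). The 8 B and plasma cell markers ranged from -0.03 to 1.299 at 96 weeks, against -0.67 to -0.63 at 14 weeks, with 1 passed (12.5%). The 11 T and NK cell markers ranged from -0.42 to 1.298, against -0.35 to -0.31, with none passed. In both lists replicate 1 at 96 weeks stood above replicate 3 (0.81 against 0.48, and 0.57 against 0.15). Below the 30th percentile of level lay Itgam of the macrophage list, Ms4a1 and Cd79a of the B cell list, and Cd3d, Cd4, Cd28, Klrb1c and Gzma of the T and NK cell list. The 4 distal convoluted tubule markers were lowest in 96 weeks replicate 3, at -0.995, against -0.22 to 0.25 in the other kidneys. Without replicates 3 and 4 at 96 weeks, the median log2 fold change of the 35 genes was 0.11, that of Map1lc3b was 0.31 (adjusted p = 0.0399 in limma) and that of Pink1 was 0.55 (adjusted p = 0.0553), while Mtor had 0.04. The part of immune cells in the values of the autophagy genes was not tested. As for the labelled tissue, the markers of proximal tubule (8), thick ascending limb (6), distal convoluted tubule (4), principal cells (7), intercalated cells (5) and podocytes (4) all lay above the 30th percentile, and the 5 neutrophil markers all lay below it. Some of these markers also differed with age, as 2 of the 5 intercalated cell markers passed lower at 96 weeks (40%, against 2.4% of all genes) with all 5 below 0. Of the podocyte markers 1 of 4 (25%) passed lower, and of the smooth muscle and pericyte markers 1 of 6 (16.7%).

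**Figure D3:**
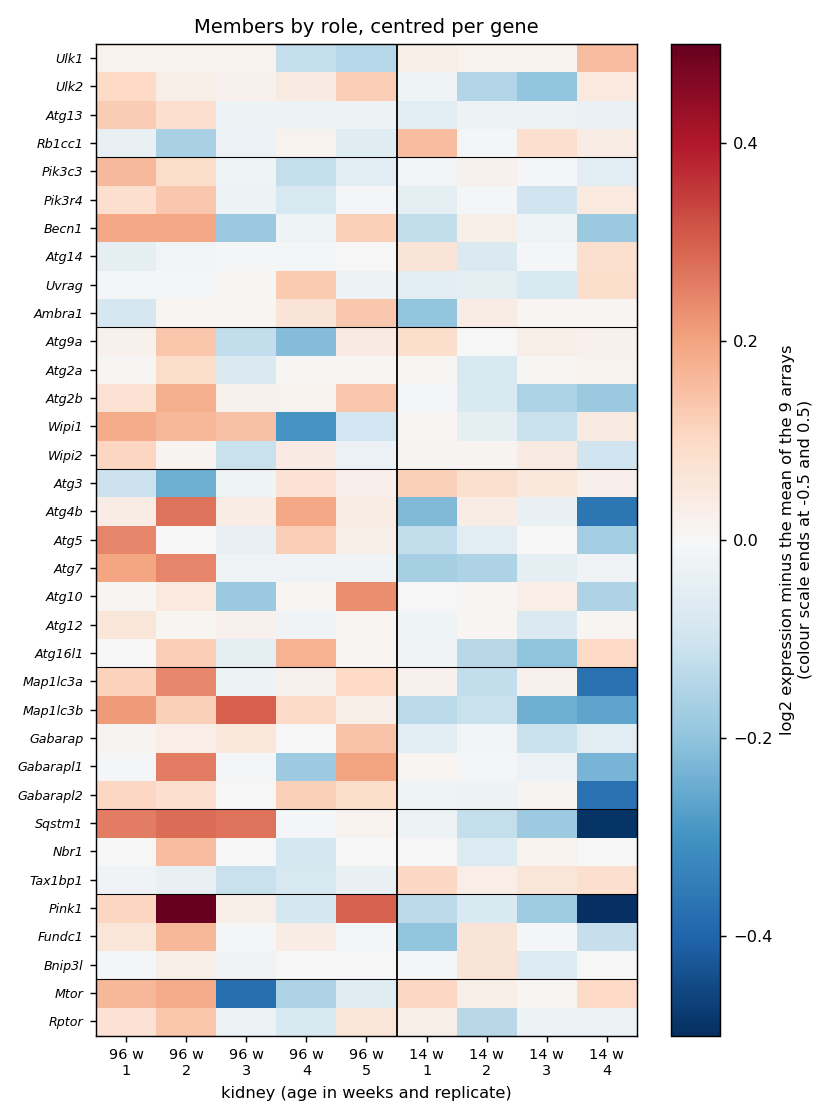
Centred log2 expression (value minus the mean of the 9 arrays) of the 35 genes by role, from top to bottom, in each 96 week old kidney (left of the line) and 14 week old kidney (right of it). Replicate 2 at 96 weeks is the highest of the old kidneys in 16 genes, and 14 weeks replicate 4 has the lowest values of Map1lc3a, Gabarapl2, Sqstm1 and Pink1.

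The scaling between arrays set the sign of the smaller differences. After repeated quantile normalization the median log2 fold change of the 35 genes was -0.03, and after cyclic loess it was 0.0040, against 0.06 as deposited. The log2 values had a standard deviation over all genes of 2.003 to 2.05 in the old kidneys, against 1.94 to 1.97 in the young. Map1lc3b kept an adjusted p under 0.05 under both (log2 fold changes of 0.27 and 0.29), while Sqstm1 had log2 fold changes of 0.30 and 0.31 and Pink1 of 0.32 and 0.35. The statement that 28 of 35 genes had a log2 fold change above 0 holds for the deposited scale, since 11 of the 28 were below 0 after repeated quantile normalization and 9 after cyclic loess.

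**Figure D4:**
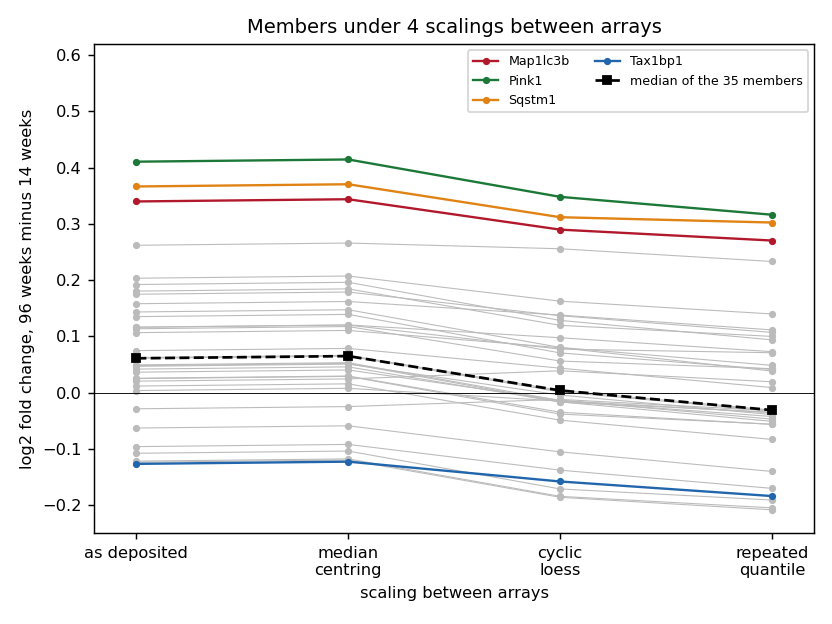
Log2 fold change (96 weeks minus 14 weeks, vertical axis) of the 35 genes under 4 scalings between arrays (horizontal axis), each line a gene and the dashed line their median. The median went below 0 only under repeated quantile normalization, and Map1lc3b, Sqstm1 and Pink1 lay above every other gene under each.

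Beyond these genes, 103 of 105 further genes of the pathway were measured, from receptors and mTORC1 regulators to fusion factors. Of these, 9 were higher at 96 weeks at an adjusted p under 0.05 (8.74%, against 4.31% of all genes) and 3 were lower (2.91%, against 2.4%). With each array left out these counts ranged from 3 to 9 and from 1 to 3, with 3 higher and 1 lower without 14 weeks replicate 3 or without 14 weeks replicate 4. Their median log2 fold change was 0.09, and 73 of the 103 were above 0 (70.9%, against 43.4% of all genes). Of the 103, 58 were among the 4985 brightest genes, of which 11% were called higher. Another 30 were among the 4984 next brightest, of which 5.36% were. The 8.74% called higher thus lay between the shares of all genes of like brightness. The medians of the 58 and the 30 were 0.08 and 0.13, against 0.05 and 0.04 for all genes of like brightness. Fkbp8, which encodes a mitochondrial receptor that binds LC3, had log2 values of 8.21, 8.58, 8.26, 8.36 and 8.24 at 96 weeks, against 7.80, 7.84, 7.90 and 7.59 at 14 weeks. The ages did not overlap, and it rose 1.46-fold (log2 fold change 0.55 ± 0.09 SE, adjusted p = 0.0102 in limma). It passed under all 20 alternative settings.

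Usp8, a deubiquitinase of endosomes, fell. Its log2 values were 10.16, 10.11, 10.10, 10.11 and 10.05 at 96 weeks, against 10.48, 10.37, 10.34 and 10.45 at 14 weeks. The ages were well apart, and the log2 fold change was -0.30 ± 0.05 (SE, adjusted p = 0.00942 in limma). Fam134b (also called Retreg1), a receptor for the autophagy of endoplasmic reticulum, also fell, by 0.37 on the log2 scale (adjusted p = 0.0326 in limma), and was lowest in 96 weeks replicates 3 and 4, at 8.41 and 8.38, against 8.86 or more at 14 weeks.

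Of the genes that act after closure of the autophagosome, Vamp8, a SNARE of its fusion with the lysosome, had log2 values of 11.23, 11.24, 11.08, 11.11 and 11.18 at 96 weeks, against 10.89, 10.77, 10.81 and 10.52 at 14 weeks. It rose 1.34-fold without overlap (adjusted p = 0.0140 in limma). Of the 15 fusion genes, 14 had a log2 fold change above 0 (93.3%, against 43.4% of all genes). Vamp8 was the only one that passed (6.67%, against 4.31% of all genes called higher). For further genes that did not pass, signs under other scalings between arrays are not given here. Vmp1, a scramblase of the endoplasmic reticulum needed for autophagosome formation, rose by 0.28 ± 0.07 (SE) on the log2 scale (adjusted p = 0.0361 in limma), with 9.97 to 10.26 at 96 weeks, against 9.78 to 9.85 at 14 weeks.

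The 28 further mTORC1 genes had 13 members at an unadjusted p under 0.05 in the higher direction (46.4%, against 13.3% of all genes) and 1 in the lower (3.57%, against 15.3%), and 2 passed (7.14%, against 4.31%). The list mixes activators and inhibitors of mTORC1, and the 13 include the inhibitors Tsc2, Nprl2 and Sesn2 beside Rragc and Lamtor4. The counts thus give no direction for mTORC1 activity, which was not tested. Lamtor4, a subunit of the Ragulator that anchors mTORC1 at the lysosome, had log2 values of 8.81, 8.86, 8.73, 8.72 and 8.80 at 96 weeks, against 8.30, 8.53, 8.54 and 8.43 at 14 weeks. The ages were clear of each other, and the log2 fold change was 0.33 ± 0.06 (SE, adjusted p = 0.0153 in limma). Rragc, a Rag GTPase of the same platform, lay between 8.42 and 8.63 at 96 weeks, against 8.26 to 8.42 at 14 weeks, and rose by 0.24 ± 0.06 (SE) on the log2 scale (adjusted p = 0.0408). Of the 7 AMPK genes, Stk11, whose product LKB1 activates AMPK, rose 1.27-fold (adjusted p = 0.0400), with 8.97 to 9.35 at 96 weeks, against 8.62 to 8.83 at 14 weeks.

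Of the further genes that passed, 3 held E-boxes in their windows, Lamtor4 (120 and 104 bases before the start) and Rragc (112 bases before it), which rose, and Fam134b (188 bases before it), which fell. All 3 windows are shown whole, with the E-boxes in capitals, because the motif stood beside genes that moved in either direction. Only windows that held an E-box were considered for showing. The window of Fam134b belongs to an annotated start inside the gene, which begins at chr15:25843298. Lamtor4 spans chr5:138255232-138255501, Rragc spans chr4:123917183-123917452 and Fam134b spans chr15:25942429-25942698, all on the plus strand of GRCm38.p6.

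Lamtor4: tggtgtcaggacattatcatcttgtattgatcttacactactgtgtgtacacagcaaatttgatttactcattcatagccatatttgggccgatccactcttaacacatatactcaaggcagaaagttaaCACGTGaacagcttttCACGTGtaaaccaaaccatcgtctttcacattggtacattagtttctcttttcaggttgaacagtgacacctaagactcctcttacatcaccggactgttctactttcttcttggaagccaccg
Rragc: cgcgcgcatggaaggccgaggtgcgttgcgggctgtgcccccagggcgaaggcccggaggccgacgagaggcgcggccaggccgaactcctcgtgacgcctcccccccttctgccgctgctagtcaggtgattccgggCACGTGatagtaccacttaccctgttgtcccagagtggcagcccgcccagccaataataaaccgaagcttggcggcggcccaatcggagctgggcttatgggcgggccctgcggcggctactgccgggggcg
Fam134b: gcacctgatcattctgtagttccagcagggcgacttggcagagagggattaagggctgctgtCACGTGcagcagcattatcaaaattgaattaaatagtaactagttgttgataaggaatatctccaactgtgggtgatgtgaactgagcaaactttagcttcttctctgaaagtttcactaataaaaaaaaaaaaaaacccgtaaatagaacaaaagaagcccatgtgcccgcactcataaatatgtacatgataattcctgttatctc

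Over the 91 further genes with a window, the E-box lay in 17 of 118 windows (14.4%, against 6.57% of all windows and 7.27% of protein-coding windows). The whole CLEAR element lay in 2 (1.69%, against 0.31% of all and 0.4% of protein-coding windows), those of Vps16 and Vps33a, neither of which passed.

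The 8 transcription factors of autophagy genes were split. Atf4, a factor of the amino acid and stress response, had log2 values of 7.62, 7.49, 7.50, 7.67 and 7.58 at 96 weeks, against 7.27, 7.40, 7.18 and 7.08 at 14 weeks, and rose 1.27-fold without overlap (adjusted p = 0.0224 in limma). Foxo3, a factor that drives autophagy genes in muscle, had 8.20, 8.07, 7.93, 7.87 and 8.08 at 96 weeks, against 8.48, 8.18, 8.62 and 8.53 at 14 weeks. It fell by 0.43 on the log2 scale (adjusted p = 0.0306 in limma), although 96 weeks replicate 1 lay just above 14 weeks replicate 2. Wdr45b and Usp30, the other 2 genes that passed (0.45 and 0.30 on the log2 scale, adjusted p = 0.0466 and 0.0474), were outside the 10 smallest p-values and are named after their values were seen. The Wdr45b groups overlapped, with 3 arrays at 1 value. Wdr45b passed under 6 of the 20 alternative settings and Usp30 under 8, Vmp1, Rragc and Stk11 under 9 each, Fam134b and Foxo3 under 10, Atf4 under 15, and Usp8, Lamtor4 and Vamp8 under 19.

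**Figure D5:**
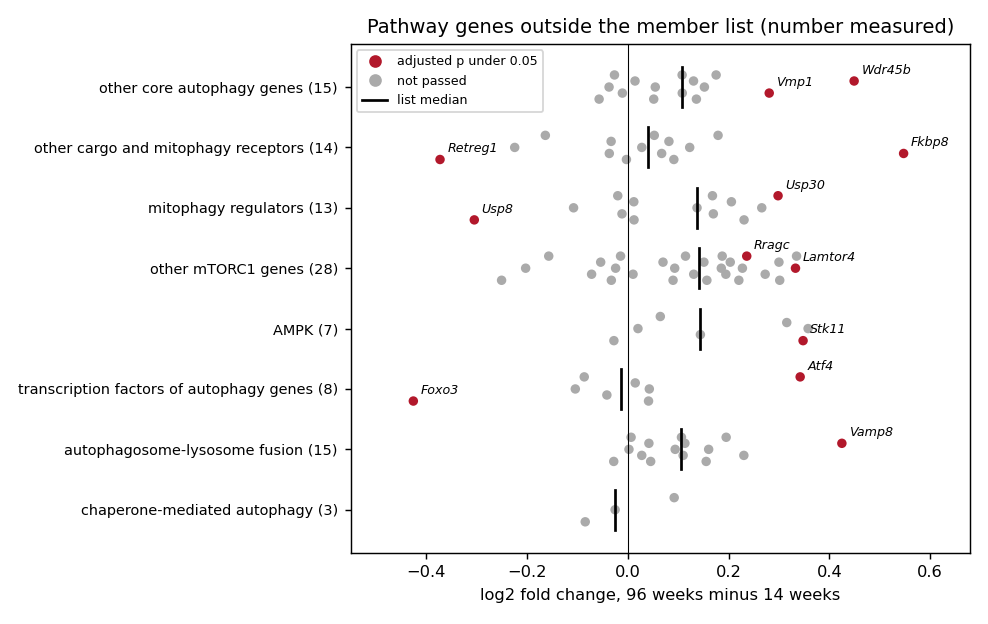
Log2 fold change (96 weeks minus 14 weeks, horizontal axis) of 103 further pathway genes by function, each point a gene, with red points for those at an adjusted p under 0.05 and a bar for each list's median. The lists lie mostly above 0, and Fkbp8 and Wdr45b are the 2 furthest right and Foxo3 and Retreg1 (Fam134b) the 2 furthest left.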

How the data were processed

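Kidney RNA of 9 mice was amplified, labelled with biotin and hybridised, 1 array for each labelled replicate. The authors processed the scans by RMA with quantile normalization in Affymetrix Power Tools 1.12.0, per the submitters' processing notes and the methods, and the deposited unit is log2 expression, given for 35557 probe sets. Which genome build the annotation used is not given in the sources used here. Signal over background was not used, and dimness alone does not show that a gene was silent. The number of arrays, and values shared by several arrays of a gene, limited the precision. The methods name 5 mice at each age, whereas 4 arrays were labelled 14 weeks. Scan dates were not analysed here.

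Probe sets with 1 gene symbol (21789) were kept, and those with several (1621) or none (12147) were left out. The brightest was taken for genes with more than 1, which left 19938 genes. In R 4.3.3, limma 3.58.1 fitted the difference of 96 weeks minus 14 weeks with lmFit and eBayes, with Benjamini-Hochberg adjustment over all genes and a threshold of 0.05. P-values set the difference of the age means against the spread between kidneys within each age, which limma moderates across genes. A handling difference shared by all kidneys of an age would enter the difference. The fit was tested on simulated data. For genes given in full, an exact two-sided permutation test took all 126 splits of the 9 arrays. Full values were given for the member genes that passed or whose ages did not overlap, with examples from the other roles, and the 10 smallest p-values were named from the further list, with full values or ranges. The member genes and all lists were chosen with earlier results of these data known. Replicate numbers 1 to 4 occur at both ages, but correlations of same-numbered kidneys did not exceed 0.076, and they were not treated as pairs. Alternatives were another test (the methods' Student's test, or limma with trend and robust variance), array weights, a filter on dim genes (below the 30th percentile), 3 scalings, 2 probe set rules, a replicate block, and arrays left out. Promoter windows came from RefSeq (GRCm38.p6) and were searched in Python 3.11.15.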

Additional observations from a re-analysis of the deposited data

Results flagged for a closer look

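In 94 groups of 4 or 5 kidneys (47 genes, of which 35 are the autophagy genes), 1 kidney stood away from the rest of its age by Dixon's test in 10 cases, 8 of them among the 70 groups of the autophagy genes. Chance gives about 1 in 20 groups where values are not tied. The flagged young groups of Ulk1, Ambra1 and Atg2a and the old group of Uvrag held tied arrays, so that the count cannot be set against that rate. The kidney of 14 weeks replicate 4 was involved in 5 of the 10. It was lowest for Gabarapl2 (8.72, nearest 9.07), Gabarapl1 (10.48, nearest 10.68) and Atg10 (8.61, nearest 8.77), and highest for Ulk1 (7.56, nearest 7.44) and Vmp1 (9.85, nearest 9.79). Among the other young kidneys, replicate 1 was lowest for Ambra1 (7.70, nearest 7.90) and replicate 2 for Atg2a (6.51, nearest 6.60). Among the old kidneys, replicate 4 was highest for Uvrag (9.44, nearest 9.32) and lowest for Rragc (8.42, nearest 8.58), and replicate 3 was lowest for Gabarapl2 (9.10, nearest 9.18).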

How the results depend on the processing

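Of the 35 genes, the number called higher (1) was 0 in the methods' t-test and 2 with a limma trend and robust variance or after removal of dim genes, and ranged from 0 to 1 when each array was left out (0 without 14 weeks replicate 3 or 4). The number called lower (0) was 1 after repeated quantile normalization and stayed at 0 with each array left out. Over all genes, 860 were called higher and 479 lower, against 484 and 505 after repeated quantile normalization, 562 and 379 after cyclic loess, and 273 and 94 in the methods' t-test. The count past 1.5-fold stayed at 0 throughout. The median log2 fold change (0.06) was -0.031 after repeated quantile normalization, 0.0040 after cyclic loess and 0.11 without replicates 3 and 4 at 96 weeks, a change chosen because these kidneys stood apart in earlier results, and ranged from 0.05 to 0.08 with each array left out. The causes were not tested.

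With replicate number as a block, which the check of pairing did not bear out, Sqstm1 (0.40, adjusted p = 0.0420 in limma) took the place of Map1lc3b (adjusted p = 0.0574), the median was 0.07, Atg10 was at -0.0034, and over all genes 279 were higher and 89 lower. Of the further genes, the 9 higher and 3 lower became 2 and 0 with the block, 3 and 1 in the methods' t-test, 4 higher after repeated quantile normalization or cyclic loess (9 after median centring), and 1 lower without replicates 3 and 4 at 96 weeks, and ranged from 3 to 9 higher and 1 to 3 lower with each array left out (5 higher without 96 weeks replicate 1, 96 weeks replicate 3 or 14 weeks replicate 1, 4 without 96 weeks replicate 2, and 1 lower without 96 weeks replicates 3, 4 or 5 or 14 weeks replicates 1, 3 or 4).

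Signs turned for small differences. Repeated quantile normalization put Atg13 at -0.031, Pik3c3 -0.056, Pik3r4 -0.051, Uvrag -0.035, Ambra1 -0.033, Wipi1 -0.039, Wipi2 -0.083, Atg10 -0.036, Atg12 -0.047, Nbr1 -0.056 and Bnip3l -0.042. Cyclic loess put Pik3c3 at -0.038, Pik3r4 -0.016, Uvrag -0.017, Wipi1 -0.00418, Wipi2 -0.049, Atg10 -0.014, Atg12 -0.013, Nbr1 -0.035 and Bnip3l -0.015. Array weights put Wipi2 at -0.0052, and without replicates 3 and 4 at 96 weeks Atg9a was at 0.032 and Mtor at 0.037. With each array left out, Pik3c3 ranged from -0.012 to 0.058, Wipi2 from -0.020 to 0.041, Atg2a from -0.0024 to 0.041, Nbr1 from -0.010 to 0.050, Bnip3l from -0.018 to 0.026 and Atg10 from -0.0034 to 0.10.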
